A study of Homo sapiens with 6 samples.

Results

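The ERK feedback genes described here are 4 dual-specificity phosphatases (DUSP4, DUSP5, DUSP6 and DUSP7), 3 Sprouty genes (SPRY1, SPRY2 and SPRY4), 2 Spred genes (SPRED1 and SPRED2) and the ETS factor gene ETV5. They were chosen by name, with earlier results of these data known, and are 10 of the 57820 genes in the tables. Their counts and medians are therefore descriptions beside those of all genes, not tests of the group. RNA-seq was performed in AID-DIvA cells, a line made from U2OS osteosarcoma cells that carries the AsiSI endonuclease for inducible DNA double-strand breaks. WT and ARID1A-KO cells were compared, with 3 samples of each genotype, numbered 3 to 5. Both genotypes carried the AsiSI construct, and both were untreated. ARID1A, a subunit of the SWI/SNF chromatin remodeling complex, had been disrupted with Cas9 and a pair of crRNAs and clones had been established, but the sources used here do not say how many clones were sequenced, so the genotype and a clone cannot be told apart. The labels do not say whether samples of a genotype were separate cultures, whereas the study describes the experiments behind its RNA-seq comparison as biological replicates. The p-values measure the spread between these samples, of which the technical share is not known.

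Growth factor receptors activate ERK through RAS, RAF and MEK, and active ERK switches on genes whose products dampen the same pathway. Dual-specificity MAP kinase phosphatases remove the activating phosphates from ERK, Sprouty proteins act between the receptor and RAF, and Spred proteins bring the RAS inhibitor neurofibromin to the membrane. ETV5, a transcription factor of the PEA3 group, is induced by FGF and ERK signalling, and RNA of these genes is widely read as a measure of pathway output. RNA levels alone were measured here, and ERK phosphorylation was not.

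Promoter sequences are shown for DUSP6, SPRY4 and SPRY2, the genes that passed the test as higher in ARID1A-KO and had an entry among the RefSeq promoters of GRCh38.p14, a newer build than the GRCh37 of the count tables. Of the 10 genes, 7 had 1 or more entries, 11 entries in all, and DUSP4, DUSP5 and ETV5 had none. Each line gives the 250 bases before a transcription start, read 5′ to 3′ on the strand of the gene, with GGAA or its complement TTCC, the core that ETS factors bind, in capitals. These are the minus strands of chr12:89352502-89352751, chr5:142324248-142324497 and chr13:80341127-80341376, the last being 1 of 3 entries for SPRY2.
DUSP6: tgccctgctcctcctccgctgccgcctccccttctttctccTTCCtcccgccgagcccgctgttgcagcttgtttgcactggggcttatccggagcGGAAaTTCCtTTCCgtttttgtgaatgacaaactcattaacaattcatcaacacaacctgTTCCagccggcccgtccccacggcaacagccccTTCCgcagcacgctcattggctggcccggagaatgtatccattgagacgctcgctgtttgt
SPRY4: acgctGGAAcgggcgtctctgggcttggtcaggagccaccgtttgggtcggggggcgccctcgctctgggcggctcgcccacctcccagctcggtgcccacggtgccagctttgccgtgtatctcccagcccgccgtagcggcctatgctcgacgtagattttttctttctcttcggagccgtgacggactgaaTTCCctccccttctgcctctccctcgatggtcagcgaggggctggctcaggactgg
SPRY2: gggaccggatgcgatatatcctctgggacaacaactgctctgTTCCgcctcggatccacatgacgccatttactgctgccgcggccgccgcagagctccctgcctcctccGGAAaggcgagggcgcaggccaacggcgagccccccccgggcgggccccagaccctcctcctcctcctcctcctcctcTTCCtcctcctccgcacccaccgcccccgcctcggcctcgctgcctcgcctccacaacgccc

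The DUSP6 window held 6 matches to GGAA on either strand, the SPRY2 window 3 and the SPRY4 window 2, where 92.7% of 35116 windows of this length held at least 1 and the median was 3. CCGGAA, a longer ETS motif that contains GGAA, was found once in the SPRY2 window shown and in 1 of the entries for SPRY1, and in 14.5% of all windows. The AP-1 motif TGANTCA, the CRE motif TGACGTCA and the serum response element core known as the CArG box were found in 0 of the 11 entries on either strand, and in 6.57%, 1.65% and 1.16% of all windows. The window of DUSP7 held 0 matches to GGAA and had a GC content of 78.4%, against a median of 58.0% over all windows. These are matches of letters, and binding was not tested.

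ARID1A RNA was first compared between the genotypes. It stood at 166, 178 and 177 CPM (counts scaled to library size by TMM) in WT replicates 3, 4 and 5, and at 25.1, 27.5 and 25.2 CPM in ARID1A-KO replicates 3, 4 and 5, and the log2 fold change came to -2.74 (SE 0.07, adjusted p = 9.66e-08 in edgeR's quasi-likelihood test after Benjamini-Hochberg adjustment). Total counts on the strand of the genes lay between 54512105 and 84088708 per sample, and the first principal component (79.9% of the variance) separated the genotypes. VIM, a mesenchymal marker, was abundant in all samples (2155 to 4479 CPM) and COL1A1 and RUNX2 were present, whereas the osteoblast genes SP7, IBSP and BGLAP were too low to test and COL1A2 did not exceed 0.27 CPM. The leukocyte and endothelial markers PTPRC and CDH5 did not exceed 2.47 and 0.51 CPM. VIM and the epithelial marker EPCAM (4.30 to 7.26 CPM) were higher in ARID1A-KO and COL1A1, ALPL, SPP1, CDH1 and PTPRC were lower, and their part in the results was not tested. Of 19599 genes tested, 36.2% passed the threshold of an adjusted p-value under 0.05, 17.8% being higher and 18.4% lower in ARID1A-KO.

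Of the 10 ERK feedback genes, 8 had enough counts to be tested and 5 of these passed the threshold. DUSP5, DUSP6, SPRY2 and SPRY4 were higher in ARID1A-KO and SPRED1 was lower, whereas DUSP7, SPRED2 and ETV5 did not pass. DUSP4 and SPRY1 were filtered out for low counts. DUSP5, DUSP6 and SPRY4 rose by 2-fold or more, as did 4.86% of all genes tested. The CPM of the genotypes did not overlap for 5 of the 8 genes, where 49.5% of all genes tested had no overlap. The log2 fold changes of the 8 genes ran from -0.30 to 2.94 with a median of 0.30, and the median over all genes tested was 0.0066. In bulk RNA, a change in the share of cells that express a gene and a change in the RNA per cell cannot be told apart.

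**Figure D1:**
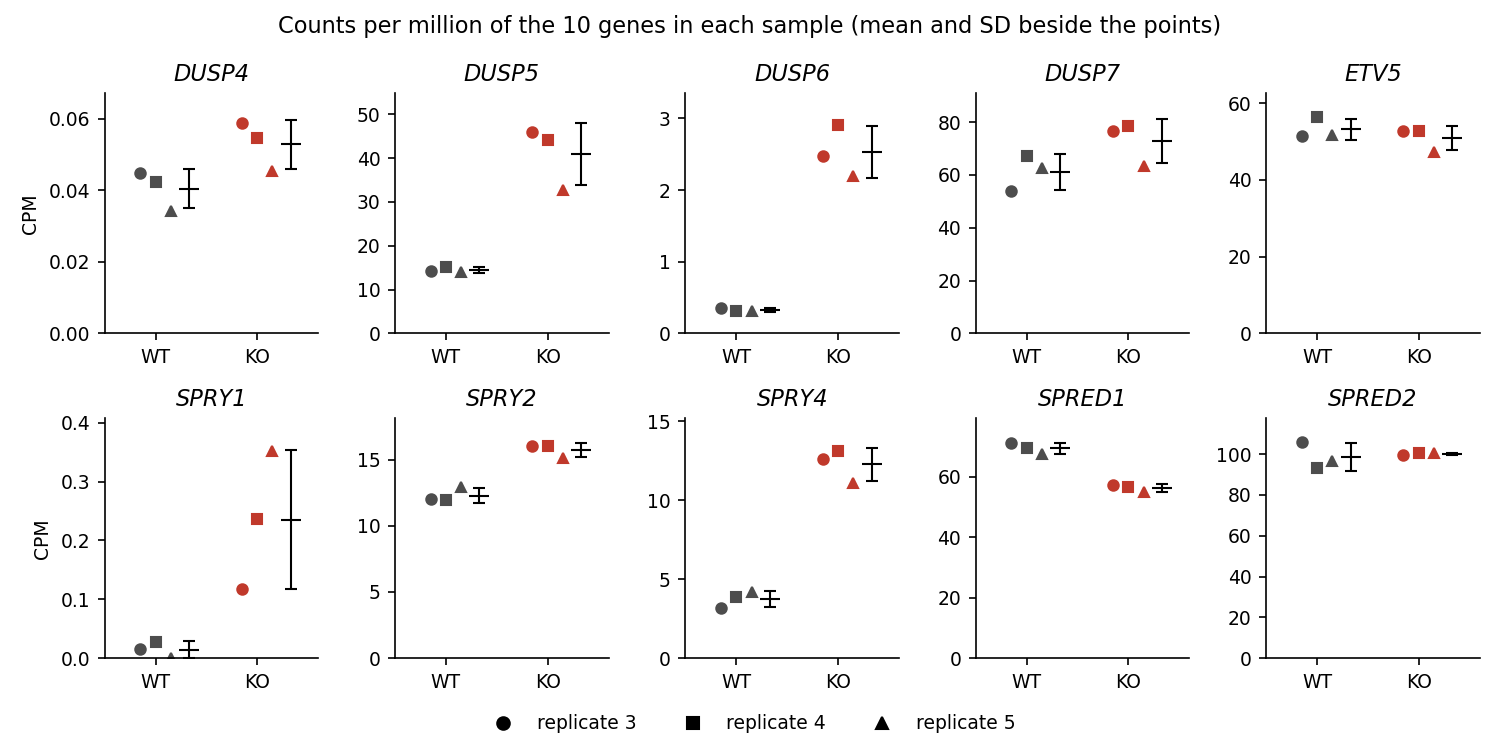
CPM of each of the 10 genes (vertical axes, from 0, a different range for each gene) in the 3 WT and 3 ARID1A-KO samples, with replicates 3, 4 and 5 as circles, squares and triangles and the mean and SD as bars beside the points. The ARID1A-KO samples lie above all WT samples for DUSP5, DUSP6, SPRY2 and SPRY4 and below them for SPRED1, and DUSP4 and SPRY1 are close to 0 in both genotypes.

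The largest change among the 8 genes was that of DUSP6, a cytoplasmic phosphatase selective for ERK (ENSG00000139318.7, chromosome 12 from 89741009 to 89747048 on the minus strand in GRCh37). It stood at 0.360, 0.310 and 0.309 CPM in WT replicates 3, 4 and 5, and at 2.47, 2.91 and 2.19 CPM in ARID1A-KO replicates 3, 4 and 5. All ARID1A-KO samples were above all WT samples, by far more than the spread within either genotype. The mean rose from 0.326 ± 0.029 to 2.52 ± 0.363 CPM (SD, n = 3), a 7.67-fold difference (log2 fold change 2.94, SE 0.20, adjusted p = 9.09e-06 in the same edgeR test). DUSP6 was nevertheless a gene of low counts, with 18 to 24 reads per WT sample and 160 to 193 per ARID1A-KO sample. Leaving out each sample in turn gave log2 fold changes from 2.83 to 3.03.

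DUSP5, the nuclear counterpart of DUSP6 that dephosphorylates ERK and holds it in the nucleus, was also higher (ENSG00000138166.5, chromosome 10 from 112257596 to 112271302, plus strand). WT replicates 3, 4 and 5 had 14.2, 15.2 and 14.0 CPM, and ARID1A-KO replicates 3, 4 and 5 had 45.9, 44.1 and 32.8 CPM. ARID1A-KO replicate 5 was the lowest of its genotype but still stood above every WT sample. The mean rose from 14.5 ± 0.686 to 40.9 ± 7.11 CPM (SD, n = 3), which is 2.83-fold (log2 fold change 1.499, SE 0.12, adjusted p = 2.93e-05 in the same edgeR test).

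The surroundings of DUSP5 were compared as well. SMC3, a cohesin subunit gene whose transcription start lies 69.9 kb away, was higher in ARID1A-KO by 0.67 on the log2 scale (SE 0.09, adjusted p = 0.000597 in the same edgeR test). Of the 31 other tested genes within 5 Mb of DUSP5, 13 were higher and 4 lower, with a median log2 fold change of 0.23. With the neighbours' median taken off as an offset, DUSP5 remained higher by 1.27 on the log2 scale. DUSP5-DT, a divergent transcript that starts 1.63 kb from DUSP5 on the opposite strand, had a log2 fold change equal to -0.41 (SE 0.17, adjusted p = 0.0795 in the same edgeR test), so it did not pass. DNA copy number was not measured in these files, and its part in the result was not tested.

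DUSP7, a cytoplasmic phosphatase of the same ERK-selective group as DUSP6 (ENSG00000164086.8, chromosome 3 from 52082935 to 52090566, minus strand), did not pass the threshold. WT replicates 3, 4 and 5 had 53.9, 67.1 and 62.4 CPM, and ARID1A-KO replicates 3, 4 and 5 had 76.7, 78.5 and 63.2 CPM. ARID1A-KO replicate 5 lay below WT replicate 4, so the genotypes overlapped. The log2 fold change was 0.25 (SE 0.10, adjusted p = 0.0871 in the same edgeR test), with an unadjusted 95% interval of 0.018 to 0.49. This result turned on single samples. Without WT replicate 4 the log2 fold change was 0.32 (adjusted p = 0.0443 in the same edgeR test), and without ARID1A-KO replicate 5 it was 0.35 (adjusted p = 0.0190 in the same edgeR test).

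DUSP4, a nuclear phosphatase that acts on ERK and on other MAP kinases (ENSG00000120875.4), was close to 0 in both genotypes. It had 3, 3 and 2 reads in WT replicates 3, 4 and 5, and 4, 3 and 4 reads in ARID1A-KO replicates 3, 4 and 5. Pooled and scaled for depth, the ratio of ARID1A-KO to WT was 1.28, with an exact 95% counting interval of 0.468 to 3.66. A difference in DUSP4 was not detectable at this depth. Counting intervals cover counting error only.

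Levels of different genes can be compared only per length, for which TPM was used, a count per exonic length that the authors scaled to the sum of autosomal genes. Summed over the 10 MAP kinase phosphatase genes DUSP1, DUSP2, DUSP4 to DUSP10 and DUSP16, TPM was 466 ± 38.8 in WT and 419 ± 16.9 in ARID1A-KO (SD, n = 3). Within this sum, DUSP5 made up 4.97%, 6.06% and 4.74% in WT replicates 3, 4 and 5, and 19.0%, 17.9% and 13.1% in ARID1A-KO replicates 3, 4 and 5. DUSP7 accounted for 10.3% ± 1.86 in WT and 13.7% ± 1.73 in ARID1A-KO. The share of DUSP6 was 0.067% ± 0.006 and 0.579% ± 0.085, so that after a 7.67-fold rise it was still under 1% of phosphatase RNA. DUSP1, a nuclear phosphatase with a broad range of MAP kinase substrates, went from 50.9% ± 4.55 to 28.8% ± 4.38. Shares of a fixed total move against each other, and no test was made on them.

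**Figure D2:**
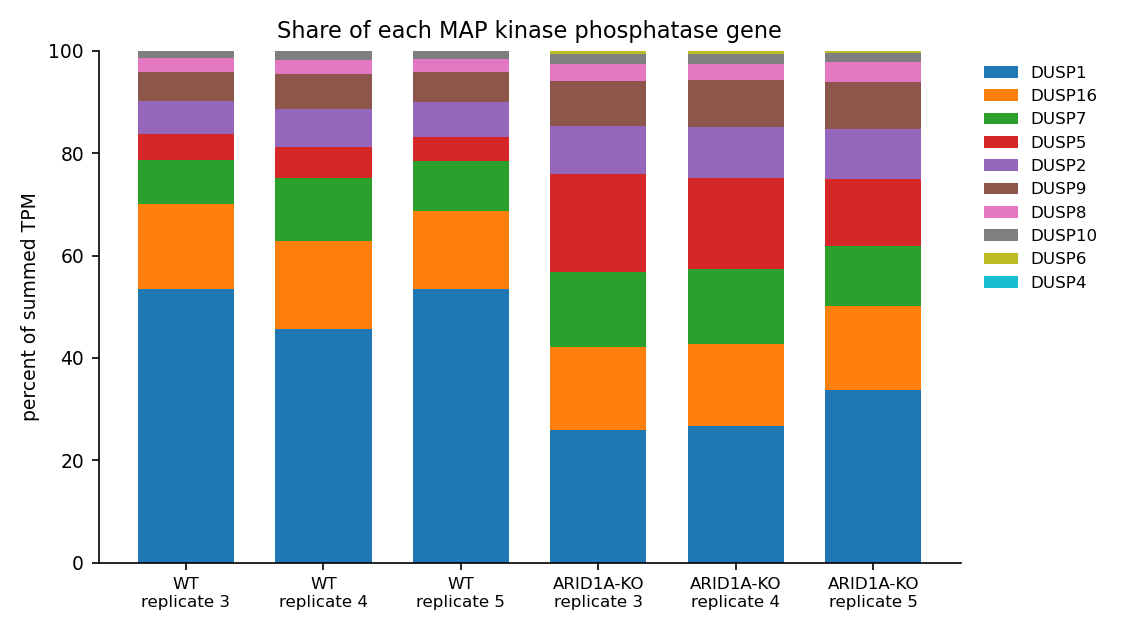
Percent of the summed TPM of 10 MAP kinase phosphatase genes (vertical axis) taken by each gene, in stacked bars for the 3 WT and 3 ARID1A-KO samples. The DUSP1 share lies between 45.6% and 53.5% in WT and between 25.8% and 33.8% in ARID1A-KO, while the DUSP5 share lies between 4.74% and 6.06% in WT and between 13.1% and 19.0% in ARID1A-KO.

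SPRY4, a Sprouty protein gene that FGF signalling induces (ENSG00000187678.8, chromosome 5 from 141689992 to 141706020, minus strand), was higher in ARID1A-KO. It stood at 3.19, 3.86 and 4.19 CPM in WT replicates 3, 4 and 5, and at 12.6, 13.1 and 11.1 CPM in ARID1A-KO replicates 3, 4 and 5. The genotypes were far apart relative to the spread within each of them. The mean rose from 3.75 ± 0.509 to 12.3 ± 1.03 CPM (SD, n = 3), a 3.27-fold difference (log2 fold change 1.71, SE 0.13, adjusted p = 1.90e-05 in the same edgeR test). The adjacent genes NDFIP1 and FGF1 had log2 fold changes of 0.058 and 0.024 and did not pass. SPRY4-AS1, an antisense RNA that overlaps the 5′ end of SPRY4, was at 0.120 to 0.432 CPM and did not pass either (log2 fold change 0.64, SE 0.39, adjusted p = 0.237 in the same edgeR test), and reads were counted by strand.

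SPRY2, the Sprouty gene with the most RNA per length in these cells (ENSG00000136158.6, chromosome 13 from 80910111 to 80915086, minus strand), rose to a smaller degree. It stood at 12.0, 11.9 and 12.9 CPM in WT replicates 3, 4 and 5, and at 16.0, 16.0 and 15.1 CPM in ARID1A-KO replicates 3, 4 and 5. The lowest ARID1A-KO sample was above the highest WT sample. The mean went from 12.3 ± 0.559 to 15.7 ± 0.520 CPM (SD, n = 3), which is 1.28-fold (log2 fold change 0.36, SE 0.08, adjusted p = 0.00728 in the same edgeR test). With an offset for gene length, the log2 fold change was 0.28 and the call was lost (adjusted p = 0.0563 in the same edgeR test).

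SPRY2 moved against its surroundings. All 16 other tested genes within 5 Mb had a negative log2 fold change, 13 of them passed the threshold as lower, and their median was -0.97. The nearest of these with a mean of at least 1 CPM, NDFIP2, lies 860 kb away and had a log2 fold change equal to -1.17 (SE 0.08, adjusted p = 7.72e-06 in the same edgeR test). When the median of the neighbours was taken off as an offset, the log2 fold change of SPRY2 was 1.32 (adjusted p = 8.13e-06 in the same edgeR test). The number of copies of this region was not measured, and its part in these values was not tested.

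SPRY1, a further member of the family (ENSG00000164056.6, chromosome 4 from 124317950 to 124324910, plus strand), was too low to be tested with the other genes. It had 1, 2 and 0 reads in WT replicates 3, 4 and 5, and 8, 13 and 31 reads in ARID1A-KO replicates 3, 4 and 5. Each ARID1A-KO sample had more reads than each WT sample, although none reached 0.4 CPM. The pooled ratio after scaling for depth was 16.1, with an exact 95% counting interval of 5.21 to 80.5. That interval leaves out the spread between samples, which ran from 0.118 to 0.352 CPM in ARID1A-KO. In a fit without a filter on low counts, SPRY1 had an adjusted p of 2.52e-07 in the same edgeR test. Adjusted p-values of that fit were on another scale. DUSP5 had 6.90e-48 there against 2.93e-05 in the main fit, and SPRY2 had 0.0111 against 0.00728. The value of SPRY1 can therefore not be set beside those of the main fit. In TPM, SPRY1 made up 0.848% ± 0.453 of the summed Sprouty RNA in ARID1A-KO.

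The summed TPM of the 4 Sprouty genes was 20.1 ± 0.789 in WT and 31.5 ± 0.803 in ARID1A-KO (SD, n = 3). SPRY2 contributed 81.7% ± 0.788 of it in WT and 67.4% ± 0.932 in ARID1A-KO, and SPRY4 contributed 13.8% ± 1.39 and 29.1% ± 1.22. SPRY2 therefore remained the main Sprouty transcript, with SPRY4 second in both genotypes.

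SPRED1, which binds neurofibromin and is mutated in Legius syndrome (ENSG00000166068.8, chromosome 15 from 38544527 to 38649450, plus strand), was the 1 gene of the 8 that was called lower. It had 71.3, 69.5 and 67.5 CPM in WT replicates 3, 4 and 5, and 57.3, 56.8 and 54.9 CPM in ARID1A-KO replicates 3, 4 and 5. All ARID1A-KO samples were below all WT samples, with little spread in either genotype. The mean went from 69.4 ± 1.90 to 56.3 ± 1.24 CPM (SD, n = 3), and its log2 fold change came to -0.30 (SE 0.06, adjusted p = 0.00299 in the same edgeR test), so that WT was 1.23-fold above ARID1A-KO.

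SPRED2, a related inhibitor of RAF activation (ENSG00000198369.5, chromosome 2 from 65537985 to 65659771, minus strand), had 106, 93.0 and 96.7 CPM in WT replicates 3, 4 and 5, and 99.6, 100.4 and 100.4 CPM in ARID1A-KO replicates 3, 4 and 5. The ARID1A-KO values lay within the range of the WT values. The log2 fold change was 0.022 (SE 0.06, adjusted p = 0.823 in the same edgeR test), with an unadjusted 95% interval of -0.12 to 0.17. ETV5 (ENSG00000244405.3, chromosome 3 from 185764097 to 185828107, minus strand) had 51.6, 56.4 and 51.7 CPM in WT replicates 3, 4 and 5, and 52.7, 52.8 and 47.3 CPM in ARID1A-KO replicates 3, 4 and 5. The genotypes overlapped for this gene too. The log2 fold change came to -0.064 (SE 0.07, adjusted p = 0.514 in the same edgeR test), with an unadjusted 95% interval of -0.22 to 0.095. A rise of ETV5 like that of DUSP5, DUSP6 or SPRY4 lay outside this interval. The 73 tested neighbours of ETV5 within 5 Mb were centred on a log2 fold change of -0.23 (median), with 34 lower and 5 higher, and with that median as an offset ETV5 was at 0.16 (adjusted p = 0.108 in the same edgeR test).

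**Figure D3:**
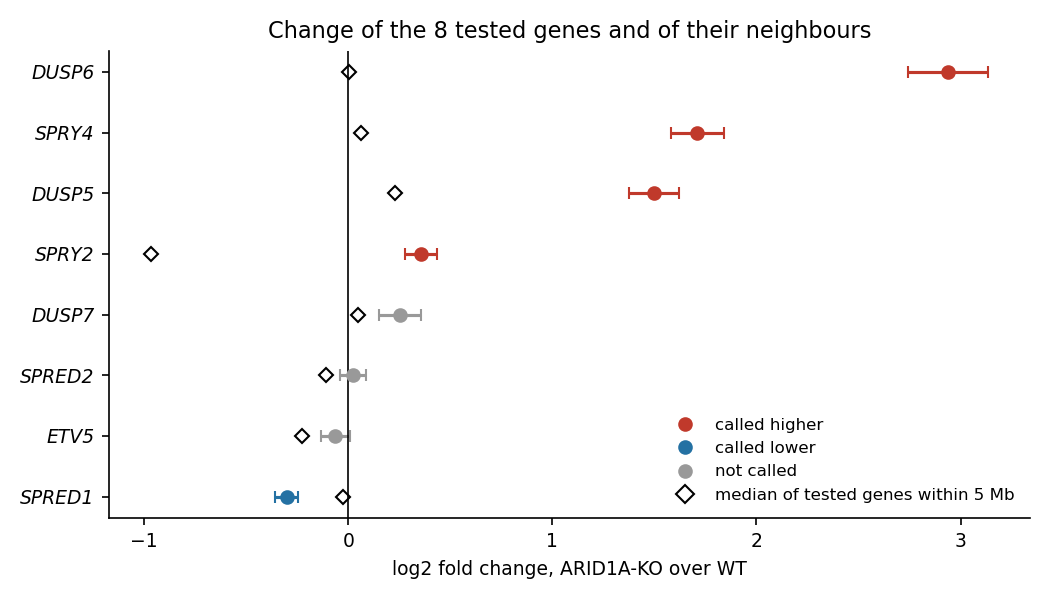
Log2 fold change of ARID1A-KO over WT (horizontal axis) for the 8 tested genes, with bars of 1 SE, beside the median log2 fold change of the other tested genes within 5 Mb of each (diamonds). DUSP6, SPRY4 and DUSP5 lie at 2.94, 1.71 and 1.499, while their neighbours' medians lie at 0.0036, 0.064 and 0.23, and the neighbours of SPRY2 lie at -0.97.

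Ordered by mean TPM, the genes of WT cells were SPRED2 (84.2 ± 7.03), DUSP7 (47.5 ± 4.68), ETV5 (40.3 ± 2.03), SPRED1 (36.97 ± 1.61), DUSP5 (24.3 ± 1.20), SPRY2 (16.4 ± 0.585), SPRY4 (2.78 ± 0.334), DUSP6 (0.310 ± 0.033), DUSP4 and SPRY1 (SD, n = 3). In this order, ETV5 and SPRED1 did not differ beyond their SDs, nor did DUSP4 and SPRY1. In ARID1A-KO, DUSP5 stood second at 69.4 ± 10.5 TPM, after SPRED2 (86.4 ± 2.47) and ahead of DUSP7 (57.2 ± 5.35), whose SD overlapped with its own. ETV5 (39.0 ± 1.53), SPRED1 (30.3 ± 0.080), SPRY2 (21.3 ± 0.248), SPRY4 (9.19 ± 0.589), DUSP6 (2.42 ± 0.315), SPRY1 (0.267 ± 0.139) and DUSP4 (0.032 ± 0.003) followed without overlap of their SDs. The genes that rose by 2-fold or more were DUSP5, SPRY4 and DUSP6, at 24.3, 2.78 and 0.310 TPM in WT. SPRED2, DUSP7, ETV5 and SPRED1, which were above DUSP5 in WT, did not pass or fell. SPRY2, below DUSP5 at 16.4 TPM, rose by 1.28-fold only, and a link between WT level and change was not tested.

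The rest of the pathway was read from 7 further lists, of which all 74 genes were tested. These lists too were written with earlier results of these data known. Of these, 19 were higher, 18 lower and 37 did not pass, and the median log2 fold change was -0.035. The 37 called genes were 50.0% of the lists, beside 36.2% of all genes tested. Without ARID1A-KO replicate 4 the number of higher genes fell to 9, and without WT replicate 3 to 12. The numbers called over all genes in those fits are not given here, so a fall particular to the lists was not shown.

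Among the relatives of the 10 genes, SPRED3 was higher (log2 fold change 0.71, SE 0.13, adjusted p = 0.00266 in the same edgeR test) and SPRY3 did not pass. Of the 6 remaining MAP kinase phosphatases, DUSP9 and DUSP2 were higher, by 0.41 and 0.32 on the log2 scale, DUSP1 and DUSP16 were lower, and DUSP8 and DUSP10 did not pass. DUSP1 went from 109 ± 18.1 to 54.7 ± 9.12 CPM (SD, n = 3), and its log2 fold change came to -0.998 (SE 0.14, adjusted p = 0.000609 in the same edgeR test). The fall of DUSP16 by 0.17 on the log2 scale (adjusted p = 0.0444 in the same edgeR test) held in 6 of 14 alternatives, was -0.020 with the neighbours' offset, and was lost without WT replicate 3 or 5 or any 1 of the ARID1A-KO replicates, with adjusted p-values up to 0.155. DUSP2 lost its call with the length offset, where its log2 fold change was 0.20 (adjusted p = 0.133 in the same edgeR test), and without ARID1A-KO replicate 4 (adjusted p = 0.0553 in the same edgeR test). The PEA3 factor gene ETV4 was higher by 0.34 on the log2 scale (SE 0.11, adjusted p = 0.0341 in the same edgeR test), and ETV1 did not pass. Without WT replicate 3, WT replicate 5, ARID1A-KO replicate 3 or ARID1A-KO replicate 4, the call of ETV4 was lost, with adjusted p-values up to 0.126.

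Other genes that respond to ERK moved in both directions. Of 20, 10 were higher and 6 lower, with a median log2 fold change of 0.36. The called genes were 80.0% of this list, beside 36.2% of all genes tested. VGF, which encodes a secreted neuropeptide precursor, rose by 2.20 on the log2 scale (SE 0.18, adjusted p = 2.50e-05 in the same edgeR test), from 29.7 ± 7.58 to 136 ± 22.2 CPM (SD, n = 3). The zinc finger factor gene EGR2 was higher by 1.55 (adjusted p = 0.0176 in the same edgeR test) but was under 1 CPM on average in both genotypes, and lost its call without WT replicate 3, ARID1A-KO replicate 3 or ARID1A-KO replicate 4, where the adjusted p was up to 0.0656. HBEGF, an EGF receptor ligand, and EPHA4, an ephrin receptor, were lower, with log2 fold changes of -1.14 and -1.03 (adjusted p = 3.30e-05 and 2.69e-05 in the same edgeR test). The number of higher genes in this list was 6 without WT replicate 3 and 5 without ARID1A-KO replicate 4. These too are given without the numbers over all genes in the same fits.

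In the RAS-RAF-MEK-ERK cascade itself, 1 of 20 genes was higher and 3 were lower, with a median log2 fold change of -0.11. The called genes were 20% of this list, beside 36.2% of all genes tested. The CPM of the genotypes did not overlap for 13 of the 20, where 49.5% of all genes tested had no overlap. SHC1, an adaptor that links receptors to RAS, was higher by 0.50 on the log2 scale (adjusted p = 0.00127 in the same edgeR test). MAP2K2, 1 of the MEK kinases, had a log2 fold change of -0.80 (adjusted p = 0.00194 in the same edgeR test), and the docking protein gene GAB1 one of -0.64 (adjusted p = 0.00140 in the same edgeR test). With the neighbours' median as an offset, GAB1 was at -0.11 and lost its call (adjusted p = 0.450 in the same edgeR test), and 7 genes of the cascade were called. The share of all genes called with this offset is not given here, so the 7 cannot be set beside the 36.2% of the main fit.

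Of 14 other brakes on receptors and RAS, 3 were higher and 5 lower, with a median of -0.16. In all, 5 passed without WT replicate 3 or without ARID1A-KO replicate 4, fits whose share over all genes is not given here. With all samples, 57.1% of this list was called, beside 36.2% of all genes tested. ERRFI1, an inhibitor of the EGF receptor, was higher by 1.07 on the log2 scale (SE 0.14, adjusted p = 0.000389 in the same edgeR test). The adaptor gene SH2B3 was higher by 0.31 (adjusted p = 0.0185 in the same edgeR test), without a call when WT replicate 3, ARID1A-KO replicate 3 or ARID1A-KO replicate 4 was left out (adjusted p up to 0.0824), and DAB2IP, a RAS GTPase-activating protein gene, was higher by 0.26. LRIG3 and the RAS GTPase-activating protein gene RASA2 were lower, with log2 fold changes of -0.66 and -0.50 (adjusted p = 0.000290 and 0.00244 in the same edgeR test). With the neighbours' median as an offset, RASA2 was at -0.072 and lost its call. NF1, which encodes the neurofibromin that SPRED1 binds, was lower by 0.19 on the log2 scale (adjusted p = 0.0444 in the same edgeR test), as were RASA1 and PEBP1.

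Of 10 receptor tyrosine kinases, EGFR was higher by 0.40 on the log2 scale (SE 0.12, adjusted p = 0.0251 in the same edgeR test). The call of EGFR was lost without ARID1A-KO replicate 4 (adjusted p = 0.0571 in the same edgeR test) or ARID1A-KO replicate 5 (adjusted p = 0.0627 in the same edgeR test). MET, the HGF receptor, and AXL, the GAS6 receptor, were lower, with log2 fold changes of -0.90 and -0.58 (adjusted p = 2.79e-05 and 0.000638 in the same edgeR test). The remaining 7 receptors did not pass, among them FGFR1. The called share of this list was 30.0%, beside 36.2% of all genes tested.

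**Figure D4:**
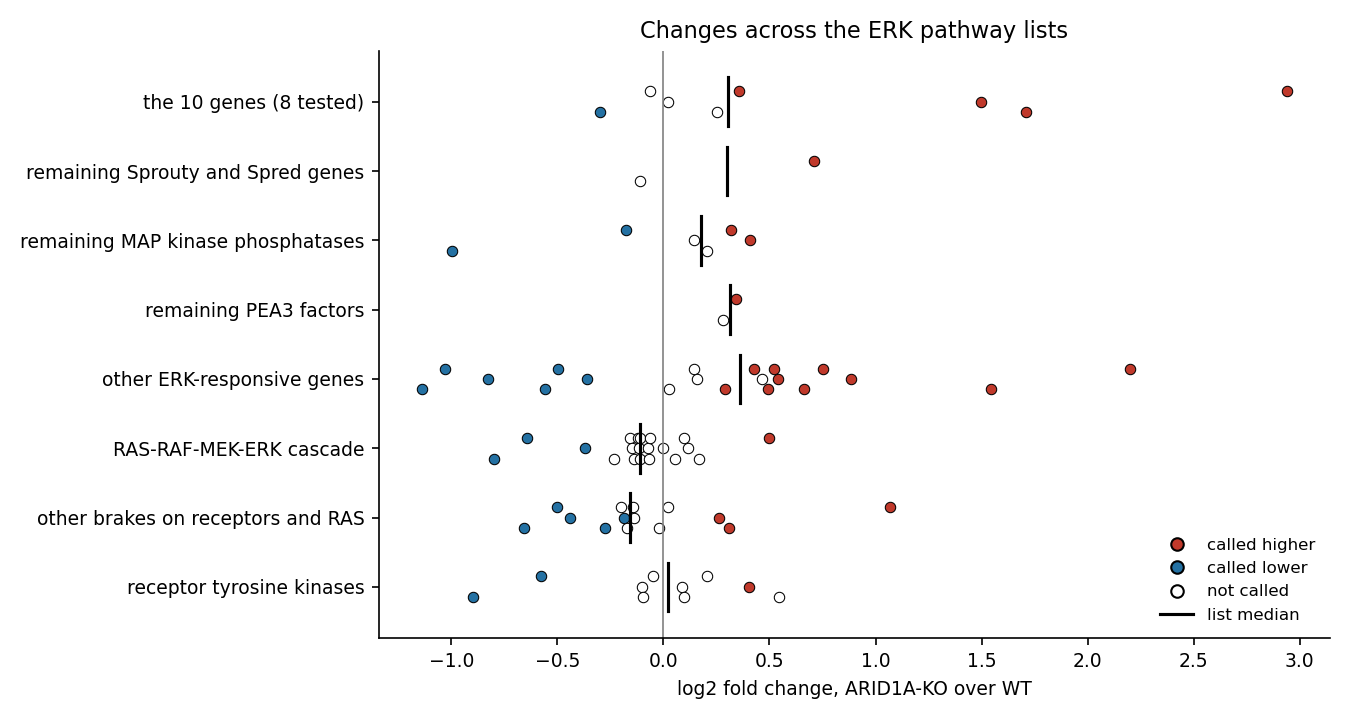
Log2 fold change of ARID1A-KO over WT (horizontal axis) of each tested gene in the ERK feedback genes and in 7 further lists of the ERK pathway, filled by call, with a bar at the median of each list. The medians lie between -0.16 and 0.36, and DUSP6 at 2.94 and VGF at 2.20 are the points farthest to the right.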

How the data were processed

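Per the study's methods, stranded paired reads of 100 bp went through the Roddy workflow, in which STAR aligned them to GRCh37 and featureCounts assigned them to genes. The labels name polyA RNA, whereas the protocol names a total RNA kit. The authors deposited whole-number counts per gene without normalization, and the counts on the reverse strand were used. For levels per length, the TPM signal that the authors deposited with autosomal genes as the scale was used, and a second deposited TPM column, scaled over all genes, was an alternative. Depth was 54512105 to 84088708 counts per sample, which makes counting error small except for genes of low counts, such as DUSP4, SPRY1, DUSP6, EGR2 and SPRY4-AS1.

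The filterByExpr filter left 19599 genes, which were normalized by TMM and tested with edgeR's quasi-likelihood test (edgeR 4.0.16, R 4.3.3, 3 WT against 3 ARID1A-KO samples, no covariate, two-sided, Benjamini-Hochberg adjustment over all genes tested). A gene with an adjusted p-value under 0.05 was called. Intervals of log2 fold changes were taken from the t distribution with the degrees of freedom of the fit. Ratios of pooled counts have exact conditional intervals. The script was checked on simulated counts with known changes. The alternatives were counts without regard to strand, RLE normalization, DESeq2 1.42.0, no filter, a minimum of 10 counts per sample, a replicate block, offsets on exonic length (loess, span 0.3) and on the median change of other tested genes within 5 Mb, each sample left out, and an adjusted p under 0.01. Each pair of samples differed by more than sampling noise. The chi-square per gene was 96.9 to 132 between genotypes. Within WT it was 18.3 for replicates 3 and 5, and 30.8 and 25.9 for replicate 4 against replicates 3 and 5. Within ARID1A-KO it was 7.20 for replicates 3 and 4, and 33.9 and 23.4 for replicate 5 against replicates 3 and 4.

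The 10 genes and the lists were chosen with earlier results of these data known. The genes named are the 10, ARID1A, markers of cell type, and per list the 2 called genes with the largest rise and the 2 with the largest fall, with further genes where a count of 5 or fewer asks for them. The values of 1 gene of the lists are not reported here. FGFR1, and the neighbours and overlapping RNAs of the 10 genes, were named after their values were seen. Neighbour distances are between transcription starts in GRCh37. Promoters of GRCh38.p14 were matched by symbol and no coordinates were converted.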

Additional observations from a re-analysis of the deposited data

Results flagged for a closer look

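Reads on the forward strand, opposite to the genes, were not used in the comparisons, but DUSP5 had more of them than its relatives. Over the 6 samples they came to 13.0% of the reads on its own strand, while the other 9 ERK feedback genes had between 0% and 1.71%. WT replicates 3, 4 and 5 had 155, 105 and 77 such reads and ARID1A-KO replicates 3, 4 and 5 had 359, 282 and 488. Their mean was 1.71 ± 0.538 CPM in WT and 5.32 ± 0.210 CPM in ARID1A-KO (SD, n = 3), a ratio of 3.11 that was not tested. The median over all genes tested was 0.22%, 18.4% of them were above 5%, and 2488 genes had a higher percentage than DUSP5. With 3 samples in a genotype, single outlying samples were not searched for.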

How the results depend on the processing

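DUSP5, DUSP6, SPRY4 and SPRED1 were called in the same direction in 14 of 14 alternatives, and the log2 fold changes ran from 1.27 to 1.64 for DUSP5, 2.83 to 3.03 for DUSP6, 1.597 to 1.79 for SPRY4 and -0.32 to -0.25 for SPRED1. SPRY2 lost its call in 1 of 14, with the offset on exonic length (0.28, adjusted p = 0.0563). DUSP7 became called without a filter on low counts (0.24, adjusted p = 0.0126), in a fit whose adjusted p-values were on another scale than the main fit's. The log2 fold change of DUSP7 ran from 0.16 to 0.35 as each sample was left out. It was called without WT replicate 4 (0.32) and without ARID1A-KO replicate 5 (0.35). SPRED2 turned in sign with the length offset (-0.025, adjusted p = 0.849) and ran from -0.020 to 0.069 as each sample was left out, turning without WT replicate 4. ETV5 turned with the neighbours' offset (0.16). Neither was called in any alternative, and the cause of these changes was not tested. At an adjusted p under 0.01, 4414 genes were called over all genes, 2044 higher and 2370 lower, and 9 genes of the 7 further lists were higher. As each sample was left out, the number of higher genes in these lists ran from 9 (without ARID1A-KO replicate 4) to 18, and was 12 without WT replicate 3. The numbers over all genes in those fits are not given here. Called ERK feedback genes numbered 4 with the length offset, up to 7 without a filter or without WT replicate 4, and 5 or 6 in the others. For the fits that gave 4 or 7, the share called over all genes is not given here. These counts can therefore not be read as a change particular to the ERK feedback genes. SPRY1, which is near 0 in WT, can pass the filter on low counts only through its ARID1A-KO counts, so its entry into some of these counts is not support for them. The log2 ratio of mean TPM of DUSP6 was 2.62 with 0.1 added and 1.38 with 1 added, and that of SPRY4 was 1.43 with 1 added.

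The labels do not say whether the replicate numbers pair the samples, and the correlations below do not settle it. Deviations from the genotype means of samples with the same number were correlated at -0.244 (number 3), 0.488 (number 4) and 0.319 (number 5) over 13068 genes. Samples with different numbers ran from -0.607 (WT replicate 4 and ARID1A-KO replicate 5) to 0.484 (WT replicate 4 and ARID1A-KO replicate 3). A pairing or a shared batch was therefore neither shown nor excluded. With a replicate block, 7477 genes were called, DUSP7 had a log2 fold change of 0.25 (adjusted p = 0.0550), DUSP16 lost its call (adjusted p = 0.0547), and the 5 called ERK feedback genes remained called.

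DUSP4 and SPRY1 were limited by depth, and the low WT counts of DUSP6 make its fold less certain than its direction.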
